A study of Mus musculus with 48 samples.

Results

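The measurements described here come from 16 of the 48 RNA libraries of the series, all from wild-type (WT) AML12 cells, an immortalised line of mouse hepatocytes. They were chosen by time and by the number in the library name, so that cells 12 h apart could be compared inside 1 number: 18 h against 30 h in libraries numbered 16, and 36 h against 48 h in libraries numbered 17, with 4 libraries at each time. RNA was sequenced by bulk Smart-seq3, a protocol built on full-length cDNA from small inputs. All cells were grown in medium that contained dexamethasone, a glucocorticoid, and all received a 1-h dexamethasone pulse to set their clocks. The WT libraries at 24 h (number 16) and 42 h (number 17), 4 each, helped to estimate the spread and served as middle times. The Bmal1-KO libraries, from AML12 cells that lack Bmal1 and were given the same pulse, were set beside the WT values at the same times. The hours were read from the titles, whose starting point is not stated. Whether the 4 libraries of a time were separate cultures is also not stated, so each p-value reflects the spread among libraries, which could be technical only.

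The circadian clock is a feedback loop of transcription in nearly every mammalian cell. BMAL1 and its partner CLOCK switch on genes that include their own repressors, the PER and CRY proteins, and the loop takes about a day. In hepatocytes it times genes of metabolism, and a glucocorticoid pulse aligns the clocks of cultured cells, so that transcripts on opposite sides of the cycle stand 12 h apart. Samples 12 h apart catch the whole swing of a daily rhythm that peaks at either time, and none of one that peaks midway between them. The pair 36 and 48 h is shifted by 6 h from the pair 18 and 30 h on a 24-h cycle, so a rhythm missed by either pair is caught by the other.

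The deposited table gives counts for 32377 features, and the files do not pair these with gene names. A feature is therefore given by its data row, counted from 1 after the header, or by its values alone. No gene list, no clock gene and no marker of hepatocytes could be looked up, and neither the cell type nor the loss of Bmal1 was checked by a gene. The 16 libraries held 77907 to 687523 counts, with a median of 433066. WT 36 h replicate 2 had 650414 counts and the other libraries at 36 h had 105849 to 195589. The libraries at 48 h had 417825 to 654003 counts, with a median of 568802 beside 190800 at 36 h. Depth therefore largely went with time between 36 and 48 h. Values in CPM, the usual unit of counts scaled to library size, were computed with edgeR's TMM factors. A feature is called where edgeR's quasi-likelihood test gave a Benjamini-Hochberg adjusted p under 0.05 over the 8477 features tested in the 24 WT libraries.

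The layout touches every result below. The letters of the library names rise with time inside each number (E to H at 18 h, I to L at 24 h and M to P at 30 h in number 16, and A to D at 36 h, E to H at 42 h and I to L at 48 h in number 17). Time and place in the order of letters therefore cannot be told apart. The number of features expected in an equal draw of 77907 counts was 9590 ± 23.7 (SD, n = 4) at 18 h and 9699 ± 87.6 at 30 h (two-sided exact permutation p = 0.0571, adjusted p = 0.228 over 4 tests). At 36 h it was 9649 ± 36.3 and at 48 h 9688 ± 90.2 (exact permutation p = 0.6, adjusted p = 0.6, n = 4). The 100 most abundant features took 18.84% ± 1.09 (SD, n = 4) of counts at 18 h and 19.88% ± 0.734 at 30 h (exact permutation p = 0.171, adjusted p = 0.342). They took 19.44% ± 1.33 at 36 h and 20.5% ± 0.812 at 48 h (exact permutation p = 0.286, adjusted p = 0.381, n = 4). With 4 against 4 the smallest possible p is 0.0286. After adjustment over 4 tests, 1 test at that p alone would not pass the threshold. Neither measure passed it, which with so few libraries does not show that the times were alike.

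Between 18 and 30 h, 34 features changed in WT cells, 25 of them higher and 9 lower at 30 h, which is 0.401% of the features tested. The median change among them was 2.219-fold, from 1.567-fold to 5.825-fold, and 22 changed at least 2-fold. Because called features are those whose measured change was large against its error, these folds lean high. Before adjustment 914 features had a p under 0.05, where 423.8 would be given by the threshold alone. In 33 of the 34 the 4 libraries of one time did not overlap the 4 of the other, while 445 of all features tested (5.25%) were separated in that way. The calls come from the same libraries and favour such separation, so it is no separate support.

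Rows are named by a rule: a call, a log2 CPM averaging 4 or more, and no overlap between the 2 times. Their lack of overlap was therefore fixed in advance and adds no support. The largest rise was in row 15587, which stood at 6.791, 12.61, 3.168 and 7.922 CPM at 18 h and at 27.14, 53.69, 29.44 and 54.14 CPM at 30 h. All 4 libraries at 30 h lay above all 4 at 18 h, although the counts behind the 18 h values were only 4, 1, 1 and 4. The change was 2.54 on the log2 scale (SE 0.43, edgeR adjusted p = 0.000274). Row 9555 was next, at 10.19, 0.0, 15.84 and 13.86 CPM at 18 h and 27.14, 53.69, 45.3 and 32.49 CPM at 30 h. By the rule its groups did not overlap either, and the change was 1.60 (SE 0.38, edgeR adjusted p = 0.0255). Row 9555 passed the threshold in 11 of the 22 alternative fits that gave it a value. It missed it with DESeq2 (adjusted p = 0.0632), with only the 8 libraries compared (edgeR adjusted p = 0.0876), and without WT 18 h replicate 1 or 4 or WT 30 h replicate 2, 3 or 4 (edgeR adjusted p from 0.0586 to 0.232).

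The largest falls were in 2 neighbouring rows, 14810 and 14809. Row 14810 read 78.1, 37.82, 34.85 and 47.53 CPM at 18 h and 29.61, 5.966, 15.85 and 12.38 CPM at 30 h, a log2 change of -1.68 (SE 0.35, edgeR adjusted p = 0.00702). Row 14809 read 57.72, 25.21, 34.85 and 43.57 CPM at 18 h and 24.68, 11.93, 11.32 and 12.38 CPM at 30 h, a change of -1.57 (SE 0.36, edgeR adjusted p = 0.0196). Over the 24 WT libraries their log2 CPM values ran together with r = 0.97 (across libraries of 6 times, with no test), and they may share reads, so their split is uncertain. Without WT 18 h replicate 1 neither row was called (edgeR adjusted p = 0.26 for both). Row 14810 also missed the threshold without WT 30 h replicate 4 (edgeR adjusted p = 0.0826). Row 14809 missed it with DESeq2 (adjusted p = 0.0813) and without WT 30 h replicate 3 or 4 (edgeR adjusted p = 0.106 and 0.135). In row 14809 the library WT 30 h replicate 1 sat at 24.68 CPM, above the other 3 at 30 h.

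The features with the smallest p between 18 and 30 h had more counts than the named rows. The rise with the smallest p was chosen after its values were seen: it stood at 146.0, 75.64, 123.6 and 114.9 CPM at 18 h and at 246.8, 286.3, 283.1 and 409.9 CPM at 30 h. Its lowest value at 30 h was 246.8 CPM against a highest of 146.0 CPM at 18 h. The change was 1.32 on the log2 scale (SE 0.18, edgeR adjusted p = 3.37e-06). The fall with the smallest p, likewise chosen after its values were seen, went from 341.3, 252.1, 310.5 and 322.8 CPM at 18 h to 217.2, 125.3, 131.4 and 140.8 CPM at 30 h, a change of -1.02 (SE 0.16, edgeR adjusted p = 9.67e-05). Again the 4 values at 30 h lay below the 4 at 18 h. Choosing by the smallest p favours small errors and such separation, so neither adds support. The count of 34 depended on single libraries: it was 10 without WT 18 h replicate 1 and 77 without WT 30 h replicate 1.

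**Figure D1:**
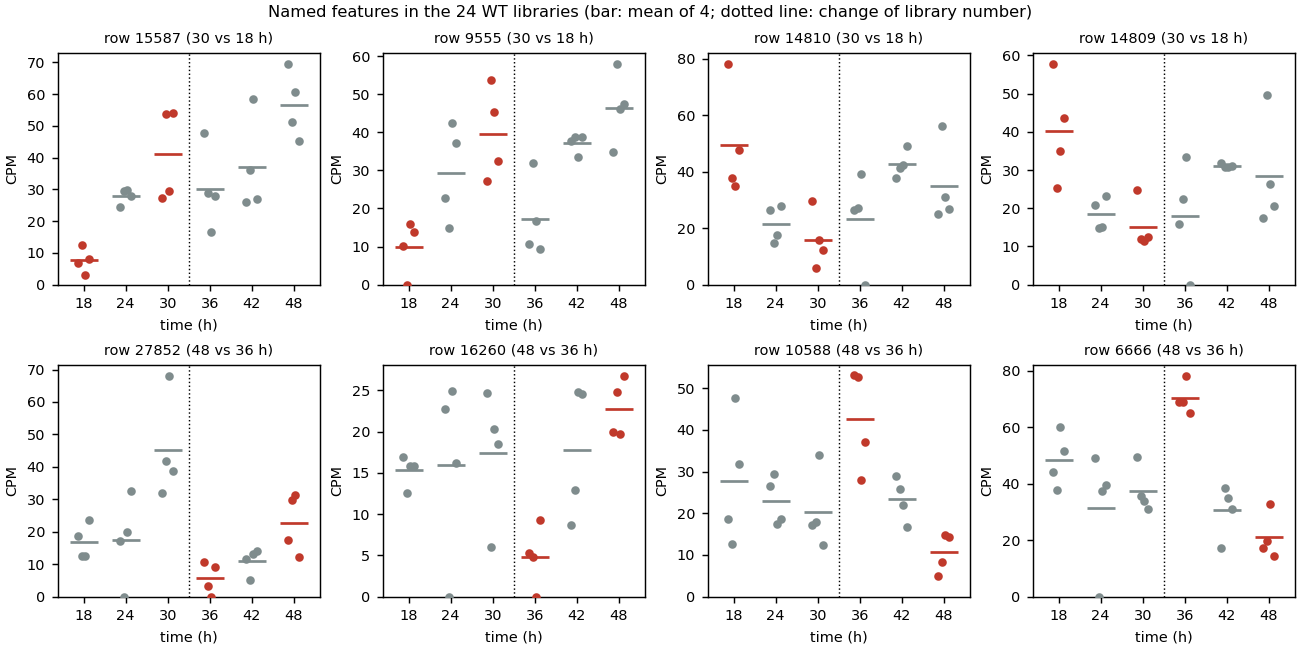
Each panel shows 1 named feature in CPM (y axis) against time in hours (x axis) for the 24 WT libraries, with red points for the 2 times of the comparison that named it, grey points for other times and a bar at the mean of 4. Row 15587 rose from a mean of 7.622 to 41.1 CPM between 18 and 30 h, and row 6666 fell from 70.17 to 21.12 CPM between 36 and 48 h; the dotted line marks the change of library number.

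Between 36 and 48 h, 81 features changed, 41 higher and 40 lower at 48 h, which is 0.956% of those tested. The median change among called features was 1.912-fold, from 1.432-fold to 4.896-fold, and 34 changed at least 2-fold. Before adjustment 841 had a p under 0.05. The 2 times did not overlap in 77 of the 81, and in 643 of all features tested (7.59%). Here too the calls favour such separation. The fitted errors were near those of the earlier pair, with a median SE over all features of 0.2745 against 0.2669.

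Row 27852 rose most. It read 10.61, 3.196, 0.0 and 9.276 CPM at 36 h and 17.41, 29.77, 31.21 and 12.33 CPM at 48 h, with 0 to 2 counts per library at 36 h. The groups did not overlap, as the naming rule required, and the log2 change was 2.29 (SE 0.59, edgeR adjusted p = 0.0364). Row 16260 went from 5.307, 4.794, 0.0 and 9.276 CPM to 19.9, 24.81, 19.71 and 26.72 CPM, a change of 2.26 (SE 0.57, edgeR adjusted p = 0.029). Both rest on few counts at 36 h. Both missed the threshold in several fits that left out 1 library each: row 27852 without WT 36 h replicate 2 or 3 or WT 48 h replicate 2 or 3, and row 16260 without WT 36 h replicate 1, 2 or 3 or WT 48 h replicate 2, 3 or 4.

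Row 10588 fell most, from 53.07, 52.74, 27.87 and 37.1 CPM at 36 h to 4.974, 8.269, 14.78 and 14.39 CPM at 48 h. As the naming rule required, its lowest library at 36 h (27.87 CPM) was above its highest at 48 h (14.78 CPM). The log2 change was -2.05 (SE 0.38, edgeR adjusted p = 0.00119, and 0.0761 without WT 36 h replicate 2). Row 6666 read 68.99, 68.72, 78.02 and 64.93 CPM at 36 h and 17.41, 19.84, 32.85 and 14.39 CPM at 48 h, a change of -1.67 (SE 0.30, edgeR adjusted p = 0.000789). In row 6666 the middle time lay between, at 30.52 ± 9.297 CPM (SD, n = 4) at 42 h.

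The rise with the smallest p, chosen after its values were seen, came from an abundant feature. It read 472.3, 407.5, 434.7 and 473.1 CPM at 36 h and 1806, 2376, 1656 and 1570 CPM at 48 h, a log2 change of 2.06 (SE 0.17, edgeR adjusted p = 3.6e-14). The 4 values at 36 h spanned 407.5 to 473.1 CPM, far from the 1570 CPM of the lowest library at 48 h. Choosing by the smallest p favours such separation here too. The fall with the smallest p went from 143.3, 167.8, 144.9 and 231.9 CPM to 99.48, 52.92, 62.42 and 71.94 CPM, a change of -1.25 (SE 0.20, edgeR adjusted p = 0.000116). Leaving out single libraries moved the count of 81 down to 31 without WT 48 h replicate 2 and 33 without WT 36 h replicate 3.

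Calls were more frequent among abundant features. When the tested features were ranked by mean CPM and cut into 3 equal sets, the lowest set gave 6 calls between 18 and 30 h and 13 between 36 and 48 h, and the highest set gave 19 and 51. The median SE of a log2 change was 0.366 in the lowest set and 0.1845 in the highest set for the earlier pair, and 0.3789 and 0.1898 for the later pair.

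The 2 comparisons share no library, so each can be read against the other. In both, the later time also has the later letters, so a shared direction cannot be told apart from a shared order of letters. Called in both were 11 features, which is 32.4% of the 34 and 13.6% of the 81. Of these, 9 rose both times and 2 fell both times, and none moved in opposite directions. Among the 34 features called between 18 and 30 h, 29 (85.3%) had the same sign between 36 and 48 h, beside 58.0% of all features tested. Their median change between 36 and 48 h, signed by the earlier change, was 0.445 on the log2 scale, beside 0.06356 over all features. Among the 81 called between 36 and 48 h, 74 (91.4%) had the same sign between 18 and 30 h, with a median of 0.4281 beside 0.05853 over all features.

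Across all 8477 features the 2 log2 changes correlated with r = 0.256, and with r = 0.318 over the 4023 features that averaged 6 or more in log2 CPM. These values are across genes, which are not independent replicates, and they carry no test. The test of the difference between the 2 changes called 0 features (0% of those tested) with edgeR, 519 at an unadjusted p under 0.05, and 0 with DESeq2 and with limma voom. With median-of-ratios size factors it called 3. A p that misses the threshold does not show that the changes were equal.

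**Figure D2:**
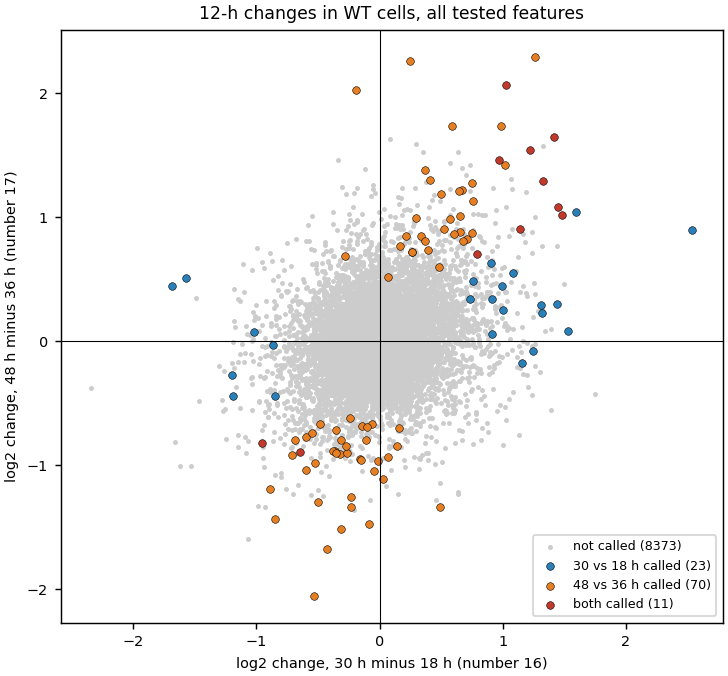
Each point is 1 tested feature, with its log2 change from 18 to 30 h on the x axis and from 36 to 48 h on the y axis; grey marks features not called, blue and orange those called in 1 comparison and red those called in both. The 11 red points lie in the upper right (9) and lower left (2) corners, and the other 2 corners hold few coloured points.

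Both changes were then tested together, which called 139 features (1.64%). The count was 90 without WT 18 h replicate 1, 36 without the libraries numbered 3 in every group and 24 with all libraries thinned to equal depth. This set held all 34 features of the earlier comparison, 75 of the 81 of the later one and 41 called in neither alone. If a feature followed a 24-h wave, the 2 changes would fix its amplitude (the height of the wave above its mean) and its peak. Read in that way, the median amplitude of the 139 was 0.5452 on the log2 scale, a peak-to-trough ratio of 2.129, beside a median amplitude of 0.1849 over all features. Row 15587 had the largest amplitude, 1.35, with a fitted peak at 28.7 h. Its highest mean was 56.72 CPM at 48 h, above 41.1 CPM at 30 h, and its difference at 42 h from the mean of 36 and 48 h was -0.11 (SE 0.25) where the wave gives -1.27. Fitted peaks fell between 24 and 30 h for 67 features (48.2%) and between 36 and 42 h for 57 (41.0%). Only 9 (6.47%) fell between 30 and 36 h and 6 (4.32%) between 18 and 24 h. Over all tested features these shares were 29.8%, 28.2%, 21.6% and 20.5% in the same order. The windows only restate the signs of the 2 changes: the first pair of windows holds features that rose both times or fell both times.

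A wave makes a further statement that does not use the same libraries. Where a feature changes by some amount between 18 and 30 h, a 24-h wave puts its level at 42 h away from the mean of 36 and 48 h by that amount divided by 2, with the sign turned. It puts the level at 24 h away from the mean of 18 and 30 h by the later change divided by 2, with the same sign. A rise or fall that is steady inside each number instead puts both middle times at 0.

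The 34 features called between 18 and 30 h had a median difference at 42 h of -0.08338 on the log2 scale, signed by the earlier change, where a wave of their size gives -0.575. The sign was that of a wave in 26 of 34 (76.5%), beside 57.7% of all features. The 81 features called between 36 and 48 h had a median difference at 24 h of -0.009388, where a wave gives 0.4674. Here 40 of 81 (49.4%) had the sign of a wave, beside 50.7% of all features. Because called changes lean high, the wave values do as well. As single features, 0 were called at 24 h (0%) with edgeR, DESeq2 and limma voom. In edgeR 272 had an unadjusted p under 0.05 at 24 h, where the threshold alone would give 423.8. At 42 h 1 feature was called (0.0118%), with 321 at an unadjusted p under 0.05, again beside 423.8. This feature had means of 50.76, 103.7 and 68.64 CPM at 36, 42 and 48 h, and 75.69, 97.54 and 44.65 CPM at 18, 24 and 30 h. Its difference at 42 h was 0.91 (SE 0.17, edgeR adjusted p = 0.0217), with the middle time highest in both numbers. DESeq2 did not call it, nor did edgeR without WT 36 h replicate 2, WT 42 h replicate 3 or 4, or WT 48 h replicate 2.

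**Figure D3:**
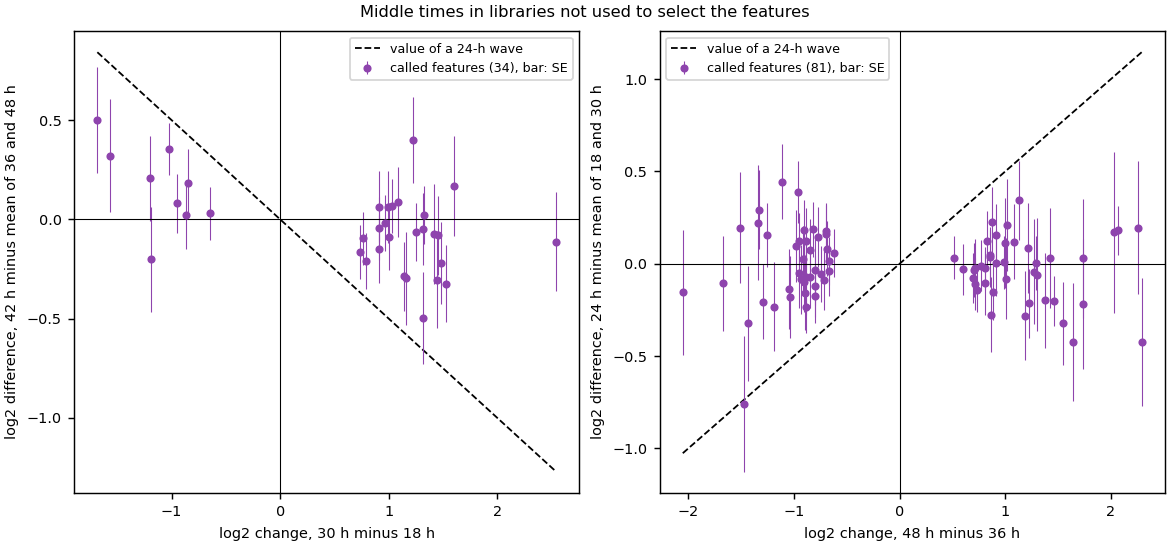
Left, the 34 features called between 18 and 30 h, with that log2 change on the x axis and the log2 difference of 42 h from the mean of 36 and 48 h on the y axis; right, the 81 features called between 36 and 48 h, with the difference at 24 h on the y axis. Bars are standard errors and the dashed line is the value of a 24-h wave. The medians after signing by the x axis are -0.08338 (left) and -0.009388 (right), and the choice of features by the x axis favours large values there and so a larger wave value.

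Another 3 tests were added after these values were seen. The first asked for a mean of the 2 changes other than 0 and called 195 features (2.3%), 106 higher and 89 lower at the later time. The second asked whether the middle times departed from the values of a 24-h wave, which the 2 changes set. It called 4 features (0.0472%). That count was 2 without WT 24 h replicate 1, WT 36 h replicate 2 or WT 42 h replicate 4, and 0 without the libraries numbered 3 or 4 in every group. The third asked whether a feature departed from an equal and steady change inside both numbers and called 1 feature (0.0118%), the one called at 42 h. Before adjustment, 374 of all 8477 features departed from a wave at p under 0.05 and 357 from the steady change. The threshold alone would give 423.8 for each.

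In the 9 features that rose both times, the means at the 3 times of each number stood in the same order. Relative to each feature's own mean over 6 times, their median level in log2(CPM + 1) was -0.687 at 18 h, -0.088 at 24 h and 0.753 at 30 h. It then stood at -0.588 at 36 h, -0.0715 at 42 h and 0.593 at 48 h. In all 9 the middle mean lay between the outer means in both numbers, and in all 9 the mean at 36 h was below that at 30 h. The outer times were selected to differ, which favours a middle value between them. Selecting a high 30 h and a low 36 h also favours a mean at 36 h below that at 30 h. Over all tested features the middle mean lay between in 34.7% at 24 h and 45.0% at 42 h. The mean at 36 h was below that at 30 h in 4228 of all 8477 features. The drop from 30 to 36 h falls on the change of library number, so time and library number cannot be told apart there. Of the 2 features that fell both times, 1 was ordered in this way in both numbers.

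The 4 features that departed from a wave all belonged to these 9, and are described by their values. The first, with the smallest p between 18 and 30 h, had means of 115.0, 176.0 and 306.5 CPM at 18, 24 and 30 h and 123.2, 192.9 and 297.9 CPM at 36, 42 and 48 h. Its difference at 24 h was 0.0049 (SE 0.15) where a wave gives 0.65 (edgeR adjusted p = 0.0287 for the departure). The second, with the smallest p between 36 and 48 h, had means of 1074, 1766 and 2248 CPM and then 446.9, 946.0 and 1852 CPM. A wave gives 1.03 for its difference at 24 h, which was 0.18 (SE 0.13, edgeR adjusted p = 0.00104). Both were near their mean of the outer times at the middle time and rose again in the second number.

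The third read 486.2, 583.5 and 942.8 CPM in number 16 and 197.4, 329.9 and 558.1 CPM in number 17 (edgeR adjusted p = 0.00104). The fourth read 36.72, 45.6 and 94.14 CPM and then 30.06, 56.6 and 74.55 CPM (edgeR adjusted p = 0.0135). The third was higher at every time of number 16 than at the matching place in number 17, by 486.2 against 197.4 CPM at the first time. The test of an equal and steady change did not call any of the 4 (edgeR adjusted p = 0.247 for the second and 1.0 for the others), which does not show that their changes were equal. The changes of the second were 1.03 (SE 0.15) between 18 and 30 h and 2.06 (SE 0.17) between 36 and 48 h, and those of the third 0.97 (SE 0.15) and 1.46 (SE 0.17).

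**Figure D4:**
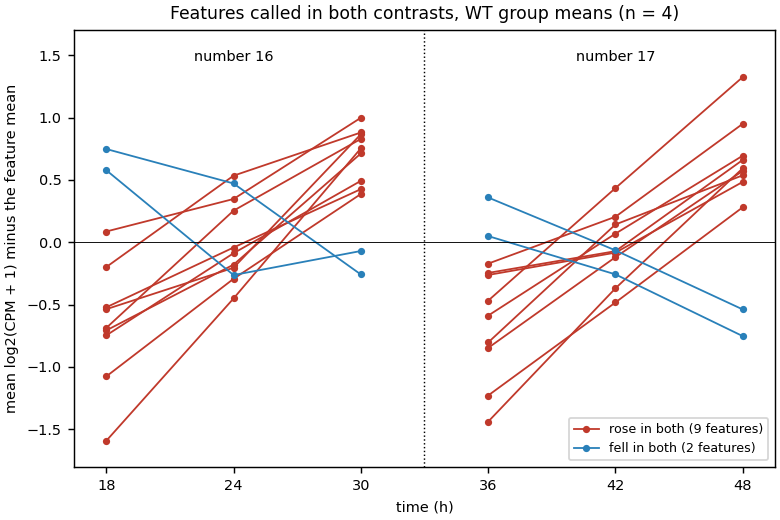
WT group means of the 11 features called in both comparisons, as mean log2(CPM + 1) minus the feature's own mean (y axis) against time in hours (x axis), in red for the 9 that rose and blue for the 2 that fell, with the line broken at the change of library number. The red lines climb through 18, 24 and 30 h, start low again at 36 h and climb to 48 h, with medians of -0.687, -0.088, 0.753, -0.588, -0.0715 and 0.593.

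The same times were compared in Bmal1-KO cells, in libraries that WT values do not use, with 1 fit over all 48 libraries and 8617 features. The KO libraries carry the numbers 18 (18 to 30 h) and 19 (36 to 48 h), so each change lies inside 1 number, while levels of WT and KO cells always come from different numbers. The KO libraries have the same letters at the same times as the WT libraries. A direction shared by WT and KO cells therefore cannot be told apart from a shared order of letters. Between 18 and 30 h 12 features were called in KO cells (0.139%), and between 36 and 48 h 2 (0.0232%). In that fit the WT comparisons called 71 and 118. Before adjustment, 896 and 544 features had an edgeR p under 0.05 in KO cells, beside 1011 and 925 in WT cells. The threshold alone would give 430.8. The 34 features called in WT between 18 and 30 h had a median WT change of 1.149 and a median KO change of 0.4974 on the log2 scale, signed by the WT change. Of these 34, 32 (94.1%) moved in the same direction in KO cells, beside 63.0% of all features. For 36 and 48 h, 80 of the 81 were tested in both genotypes, with a median of 0.9251 in WT and 0.2477 in KO cells and the same direction in 64 (80.0%), beside 57.3% of all features. The features were selected in WT, which favours the WT values, so the gap between the medians is a description.

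The genotype difference itself was tested for each feature. Between 18 and 30 h it called 0 features (0%) with edgeR, DESeq2 and limma voom, and 371 had an unadjusted p under 0.05 in edgeR, where the threshold alone would give 430.8. Between 36 and 48 h it called 1 (0.0116%), with 470 at an unadjusted p under 0.05. This feature fell in WT cells from 122.1, 124.6, 100.3 and 102.0 CPM at 36 h to 52.23, 33.07, 60.78 and 43.16 CPM at 48 h, with means of 350.0 and 354.4 CPM in KO cells. The WT change minus the KO change was -1.28 (SE 0.26, edgeR adjusted p = 0.0352), and neither DESeq2 nor limma voom called it.

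The features described by their values can be read in the same way. The rise with the smallest p between 18 and 30 h had KO means of 33.23 and 55.61 CPM at 18 and 30 h, a change of 0.64 (SE 0.28, edgeR adjusted p = 0.383). At both times all 4 KO libraries lay below all 4 WT libraries, a difference in level that cannot be told apart from one between library numbers. The fall with the smallest p between 18 and 30 h was also called in KO cells, from 296.3 to 160.7 CPM, a change of -0.90 (SE 0.16, edgeR adjusted p = 0.00101). The rise with the smallest p between 36 and 48 h was called in KO cells too, at 139.0 and 400.4 CPM, a change of 1.35 (SE 0.24, edgeR adjusted p = 0.00962). Among its 4 KO libraries at 48 h, 1 stood at 725.2 CPM and the others at 242.4 to 330.3 CPM. Between 18 and 30 h its KO change was -0.11 (SE 0.20, edgeR adjusted p = 0.9), beside 1.03 (SE 0.15) in WT cells. The WT change minus the KO change in that earlier pair was 1.13 (SE 0.26, edgeR adjusted p = 0.344). The fall with the smallest p between 36 and 48 h was not called in KO cells, at 185.7 and 167.8 CPM, with a change of -0.11 (SE 0.18, edgeR adjusted p = 0.962). For none of these 4 did the genotype difference pass the threshold, with adjusted p from 0.143 to 1.0 for the comparison that chose each.

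**Figure D5:**
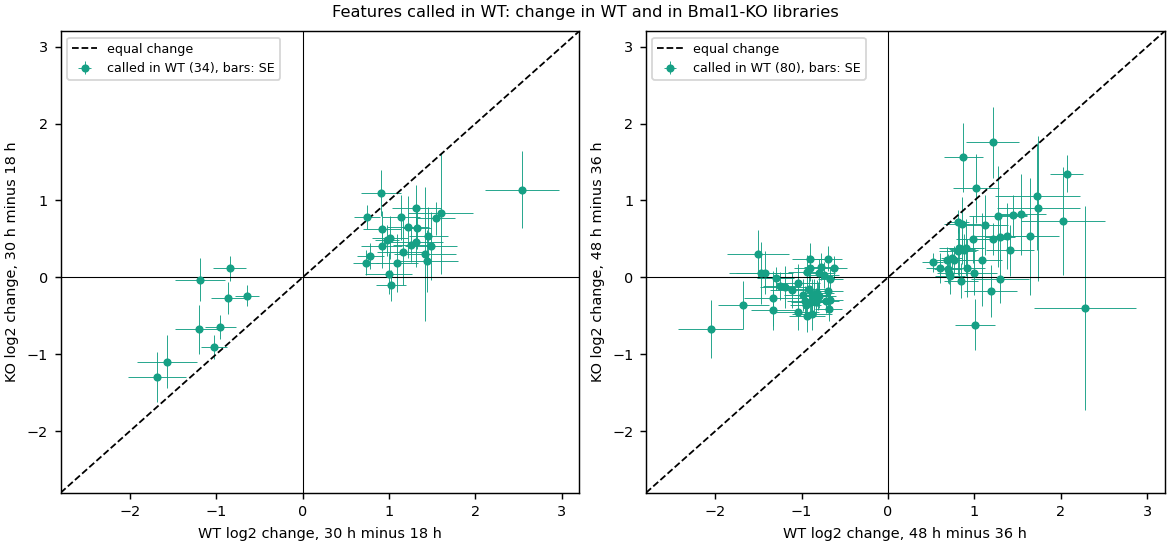
Log2 change in WT (x axis) and Bmal1-KO libraries (y axis) for the features called in WT, 34 for 18 to 30 h on the left and 80 for 36 to 48 h on the right, with standard errors as bars and a dashed line of equal change. The 2 genotypes had the same sign in 32 of 34 and 64 of 80 features, and the KO change was the larger in size in 2 and 3 of them, where the choice of features in WT favours larger WT values.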

How the data were processed

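Bulk Smart-seq3 libraries of AML12 cells were deposited by the authors as 1 table of whole-number counts per feature. The aligner STAR 2.5.4b and the mm10 (GRCm38) build are named in the submitters' processing notes, and per the file headers alignments were accepted, sorted and deduplicated. How reads were assigned to features, with which annotation and strand, and whether UMIs were counted is not given in the sources used here. Read lengths and instruments varied per the labels' protocols and cannot be tied to libraries. Of 180 columns 48 matched a library name and 132 were not used.

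Counts of 24 WT libraries (72398 to 795991 counts, those of 24 h and 42 h included) were fitted with 1 mean per time in edgeR 4.0.16 (R 4.3.3, limma 3.58.1; filterByExpr with a minimum count of 10, TMM, robust quasi-likelihood), which kept 8477 features with 97% of the counts. The genotype comparison used 48 libraries. Library measures used exact permutation tests (scipy 1.17.1). DESeq2 1.42.0, limma voom and other settings were alternatives. The 24 pairs of replicates among the 16 libraries compared differed beyond counting noise (chi-square per degree of freedom at least 1.194), and the lowest value over pairs of all 48 libraries was 1.126.

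Named features had a call, a log2 CPM averaging 4 or more, and groups that did not overlap: the 2 largest rises and 2 largest falls per comparison, and the largest joint amplitude. The features with the smallest p, and the tests of the mean change, the wave and the steady change, were chosen after values were seen. The libraries, tests and rule were chosen with earlier results of these data known. The fits were tested on simulated data. In 20 simulations they recovered on average 12.8% and 13.3% of 1.5-fold changes in the earlier and later comparison. For 2-fold changes these values were 54.8% and 50%. Of the calls, 5.03% and 4.92% were false on average.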

Additional observations from a re-analysis of the deposited data

Results flagged for a closer look

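Among 44 sets of 4 WT libraries examined, 3 held a library far from the other 3 by Dixon's criterion, where chance gives about 1 in 20, or 2.2 sets. In an equal draw of 77907 counts WT 18 h replicate 2 had 9625 features and the other libraries at 18 h had 9576 to 9580. The total of WT 36 h replicate 2 was 650414 counts, and the other libraries at 36 h had 105849 to 195589. Row 14809 stood at 24.68 CPM in WT 30 h replicate 1 and at 11.32 to 12.38 CPM in the others.

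The change between 36 and 48 h differed between genotypes for 1 feature, by -1.28 on the log2 scale (WT minus KO, edgeR adjusted p = 0.0352). Its WT means were 112.3 and 47.31 CPM and its KO means 350.0 and 354.4 CPM. The call was lost without any 1 of 8 libraries named with the other alternatives.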

How the results depend on the processing

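Median-of-ratios factors called 3 features for the difference between the 2 comparisons. DESeq2 called 29 features for 18 to 30 h, 57 for 36 to 48 h and 101 jointly, of which 23, 54 and 93 were also called by edgeR. With limma voom these were 34, 63 and 120, of which 30, 60 and 110 were shared. DESeq2 called 0 at 42 h, 2 for the steady change and 0 for the genotype difference at 36 to 48 h, and limma voom 0 for the last. With no filter the counts were 76 for 18 to 30 h, 7 for the difference, 5 for the steady change, and 1 and 0 for the genotype differences. With all 48 libraries they were 71 for 18 to 30 h, 5 for the difference, 214 jointly and 4 for the steady change. With only the libraries of a comparison they were 18 for 18 to 30 h and 2 at 42 h. Against a 1.5-fold change they were 2 and 2 for the 2 comparisons, 0 at 42 h, 7 for the mean change and 0 for the genotype difference. Thinned to equal depth they were 8 and 10, 0 at 42 h, 36 for the mean change, 24 jointly, 1 for the wave, 0 for the steady change and 0 for the genotype difference. Without libraries under 100000 counts they were 56 and 131, 4 for the difference, 4 for the steady change and 2 for the genotype difference at 36 to 48 h.

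Leaving out libraries or replicate numbers gave 10 to 77 calls for 18 to 30 h, 16 to 75 for 36 to 48 h, 0 to 5 for the difference, 0 at 24 h, 0 to 1 at 42 h, 46 to 227 for the mean change, 36 to 194 jointly, 0 to 5 for the wave, 0 to 3 for the steady change, 0 to 1 for the genotype difference at 18 to 30 h and 0 to 2 at 36 to 48 h. For 18 to 30 h single libraries mattered: 10 without WT 18 h replicate 1, and 77, 19 and 16 without WT 30 h replicates 1, 3 and 4. For 36 to 48 h there were 39, 43, 33 and 53 without WT 36 h replicates 1 to 4, and 31 and 33 without WT 48 h replicates 2 and 3. Jointly there were 90 without WT 18 h replicate 1. For the wave there were 2 without WT 24 h replicate 1, WT 36 h replicate 2 or WT 42 h replicate 4. For the steady change there were 3 without WT 30 h replicate 1 and 2 without WT 30 h replicate 4, WT 36 h replicate 3 or WT 48 h replicate 1. For the difference there were 4 without WT 18 h replicate 2, WT 30 h replicate 1 or replicate 4, and 1 without WT 18 h replicate 4 or WT 36 h replicate 3. The call at 42 h was lost without WT 36 h replicate 2, WT 42 h replicate 3 or 4, or WT 48 h replicate 2. The genotype call was lost without WT 36 h replicate 1 or 2, WT 48 h replicate 2 or 4, KO 36 h replicate 2, 3 or 4, or KO 48 h replicate 4, and was 2 without WT 48 h replicate 1 or KO 48 h replicate 3. The cause of these changes was not tested.

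The named features kept their sign in the 169 fits that gave them a value and stayed past the threshold in 117. No named row had a value with a minimum count of 30 or when thinned to equal depth, where the filter left all of them out. Row 27852 also had none with DESeq2 or with only the libraries compared. Row 16260 had none with these, with all 48 libraries, with the 16 libraries alone or without the libraries numbered 4 in every group. Rows 15587 and 6666 stayed past it in 21 of 22 fits each, row 10588 in 19, row 14810 in 16, row 14809 in 14 and row 9555 in 11, row 27852 in 9 of 20 and row 16260 in 6 of 17. Among fits without 1 library, row 10588 missed the threshold without WT 36 h replicate 2 and row 14810 without WT 18 h replicate 1 or WT 30 h replicate 4. Row 14809 missed it without WT 18 h replicate 1 or WT 30 h replicate 3 or 4, and row 9555 without WT 18 h replicate 1 or 4 or WT 30 h replicate 2, 3 or 4.

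With the replicate number as a replicate block there were 35 and 80 calls (31 and 72 of them also called without it), 143 jointly and 0 at 42 h. The block ended the calls of rows 27852 and 16260, each with an edgeR adjusted p = 0.0524. Deviations of same-numbered libraries correlated with r of 0.178, 0.158, 0.107 and 0.0974 between 18 and 30 h and -0.0749, 0.165, -0.00823 and 0.0722 between 36 and 48 h, over 4023 features. A library matched its own number best in 3 of 4 cases and 1 of 4, so the numbers were not taken as pairs. Middle times, the wave and the steady change have no value with the 16 libraries alone, and the joint test none against 1.5-fold.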
